A study of Mus musculus with 6 samples.

Results

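CC chemokine ligands were examined as 10 genes, Ccl2, Ccl3, Ccl4, Ccl5, Ccl6, Ccl7, Ccl9, Ccl17, Ccl22 and Ccl24, taken by symbol from a table of 16254 genes. All 10 were listed in the table, and all 10 passed the filter on low counts that left 13498 genes for testing. Ccl24 passed that filter only through the EV-treated group, since every sham-treated library had 0 counts of it. Eosinophils differentiated from C57BL/6 mouse bone marrow with FLT3 ligand and stem cell factor, and then IL-5, were sequenced in bulk. Cultures received either 5e9 EVs/ml purified from activated TH2 cells, or the same volume of unconditioned medium carried through the EV isolation (sham control), for 24 h. The labels name 3 biological replicates per treatment but do not say whether they came from separate mice, so p-values measure the spread between these 6 cultures.

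CC chemokines are small secreted proteins with adjacent cysteines near the amino terminus, and they attract leukocytes by binding G protein-coupled CC receptors. One receptor usually binds several ligands, and one ligand may bind several receptors. Eosinophils are attracted by the eotaxins through CCR3, and they also release chemokines themselves. Some CC ligands recruit monocytes and others recruit T cells, so the ligands a cell makes bear on which leukocytes it can attract.

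The genes lie in a few clusters, and the positions that follow are GENCODE vM21 gene bounds in GRCm38, the assembly called mm10 in the submitters' processing notes. On chromosome 11, Ccl2 (chr11:82035571-82037453) and Ccl7 (chr11:82045712-82047525) are next to each other on the plus strand with 8.26 kb between them. Further along, Ccl5 (chr11:83525778-83530518), Ccl9 (chr11:83572919-83578636), Ccl6 (chr11:83587882-83593087) and Ccl3 (chr11:83647844-83649355) lie on the minus strand, and Ccl4 (chr11:83662584-83664683) lies on the plus strand. Ccl9 and Ccl6 are 9.24 kb apart. Ccl22 (chr8:94745590-94751699) and Ccl17 (chr8:94810453-94812036) share a stretch of chromosome 8, 58.8 kb apart, with the chemokine gene Cx3cl1 between them. Ccl24 (chr5:135569937-135573049) is on the minus strand of chromosome 5.

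Promoter sequences from RefSeq (GRCm38.p6) were at hand for 5 of the 10 genes, Ccl3, Ccl6, Ccl9, Ccl17 and Ccl22. The 250 bases before the transcription start are printed for 3 of them, for Ccl6 and Ccl9 because these neighbours were both higher in EV-treated cells, and for Ccl17 because it was the member called lower. Each is written 5′ to 3′ on the strand of the gene, with matches to searched motifs in capitals.
Ccl6, chr11:83593088-83593337, minus strand: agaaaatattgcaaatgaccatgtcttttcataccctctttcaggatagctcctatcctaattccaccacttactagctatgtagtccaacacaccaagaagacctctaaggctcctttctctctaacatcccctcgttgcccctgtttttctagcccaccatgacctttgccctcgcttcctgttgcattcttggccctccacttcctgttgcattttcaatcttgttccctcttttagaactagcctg
Ccl9, chr11:83578637-83578886, minus strand: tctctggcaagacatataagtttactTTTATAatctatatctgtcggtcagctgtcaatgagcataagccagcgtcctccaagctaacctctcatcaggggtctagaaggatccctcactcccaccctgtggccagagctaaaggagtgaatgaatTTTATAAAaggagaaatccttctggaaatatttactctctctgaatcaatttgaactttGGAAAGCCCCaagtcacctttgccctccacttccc
Ccl17, chr8:94810203-94810452, plus strand: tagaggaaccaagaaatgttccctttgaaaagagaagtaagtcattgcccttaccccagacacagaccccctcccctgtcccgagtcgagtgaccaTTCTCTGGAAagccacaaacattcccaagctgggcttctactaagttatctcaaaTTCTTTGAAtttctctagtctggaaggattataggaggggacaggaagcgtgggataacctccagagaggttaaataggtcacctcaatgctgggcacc
The motifs, searched on both strands, were TATAAA, the STAT motifs TTCNNNGAA and TTCNNNNGAA, and the NF-κB consensus. Among 32851 RefSeq promoter windows of the same 250 bases, 12.4% held TATAAA, 7.02% held TTCNNNGAA, 5.85% held TTCNNNNGAA and 7.25% held the NF-κB consensus. Ccl9 had an NF-κB match that began 35 bases before the start, read on the opposite strand, and 3 matches to TATAAA. A pair of these, on opposite strands at 94 and 92 bases before the start, overlap each other. Ccl17 had the match TTCTTTGAA at 99 bases and the match TTCTCTGGAA at 154 bases before the start. None of these letters were in the windows of Ccl3, Ccl6 or Ccl22. These matches describe the letters only and do not show that a factor binds there.

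Library totals ranged from 23697620 to 37874426 counts, and a normalized count is a count scaled to a common library size by edgeR's TMM method. Among sham-treated libraries, replicate 1 stood apart, and the chi-square per gene was 33.2 and 27.5 against replicates 2 and 3, compared with 13.8 between those. All 11 eosinophil marker genes were measured, and 7 of them rose, including Ccr3, Siglecf and Alox15. Prg2, Prg3, Il5ra and Cebpe were not called. The sum of all 11 ranged from 939672 to 1184270 normalized counts in sham-treated and from 1339940 to 1497830 in EV-treated libraries. Prg2 was the largest part of these sums. Its groups overlapped, at 558759 to 717371 in sham-treated and 712821 to 777590 in EV-treated libraries. Of 15 macrophage markers, 12 fell, among them Trem2, Lyz2 and Cd14, and 1, Adgre1, rose by 0.62 on the log2 scale, where 11.6% and 12.1% of all genes tested did so. The summed macrophage markers ranged from 99539 to 159965 normalized counts in sham-treated and from 46612 to 54686 in EV-treated libraries. Sham replicate 1 had the lowest sum of the sham-treated libraries. Adgre1 made up most of each EV-treated sum, at 32085, 33532 and 32675 in EV replicates 1 to 3. It had 21206, 21095 and 21678 in sham replicates 1 to 3, so the sums understate the fall of the other markers. Mast cell and basophil markers rose for 5 of the 7 tested (Gata2, Cpa3 and Ms4a2 among them), with sums of 6261 to 7831 in sham-treated and 13225 to 15622 in EV-treated libraries. Of 9 neutrophil markers 2 rose (Ly6g and Cxcr2) and 4 fell (S100a8 among them), and their sums overlapped, at 17919.9 to 20577 against 18854 to 22416. Batf3 rose and Irf8 fell among 10 dendritic cell markers tested, and Cd28 fell among 3 T cell markers tested. Each of these marker counts stands beside the 12.1% of all genes tested that rose and the 11.6% that fell. The shares of dendritic cell markers that rose and fell were no higher than these. The summed T cell markers were 376 to 938 in sham-treated and 131 to 171 in EV-treated libraries. Without Cd28 these sums overlapped, at 83.8 to 230.4 against 104 to 124. The T cell genes Cd2 and Cd5 had 0 counts in all sham-treated libraries. In EV-treated libraries Cd2 had 2 counts in replicates 2 and 3, and Cd5 had 1 count in replicate 2. Other T cell markers had counts with sham medium, with 35, 58 and 10 for Cd3d and 44, 75 and 47 for Cd8a in sham replicates 1 to 3. In EV replicates 1 to 3 Cd3d had 28, 77 and 59 counts and Cd8a had 66, 54 and 51. Cd4 had 0, 28 and 12 counts in sham replicates 1 to 3 and 0, 1 and 1 in EV replicates 1 to 3. In the same order Lck had 14, 17 and 0 against 1, 1 and 3, and Trac had 0, 7 and 13 against 5, 2 and 1. Cd3g had 0, 3 and 0 against 4, 7 and 2. Dendritic cell marker sums overlapped, at 7422 to 10911 against 6499 to 8735. In these bulk samples, fewer cells of a type and less RNA per cell cannot be told apart, and the part of other cell types in the ligand values was not tested.

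EV-treated eosinophil cultures had higher levels of the monocyte-attracting ligands Ccl2 and Ccl7 and of the abundant rodent ligands Ccl6 and Ccl9. They also had higher levels of Ccl24, an eotaxin that binds CCR3. They had lower levels of Ccl17, which attracts T cells through CCR4. Ccl3, Ccl4, Ccl5 and Ccl22 did not pass the test. In edgeR's quasi-likelihood test at an adjusted p under 0.01, 4 of the 9 ligands other than Ccl24 were thus higher and 1 was lower. Over all genes tested, 12.1% were higher and 11.6% were lower. This count without Ccl24 was added after the data were seen. The count of all 10, with 5 higher and 1 lower, includes Ccl24, which entered the test only through the EV-treated group. The 4 and 1 without Ccl24 also had a log2 fold change of at least 1 in size, which 3.1% and 6.35% of all genes tested did. The median log2 fold change of the 10 ligands was 1.57, also with Ccl24 set at its lower bound, and 1.29 without Ccl24, compared with -0.01 over all genes tested. The 3 EV-treated cultures lay above all sham-treated cultures for 6 ligands and below them for 2, where 24.8% and 24.7% of all genes tested did so. Without Ccl24, which is among the tested genes only through its EV-treated values, they lay above for 5 of 9 ligands and below for 2. Without sham replicate 1, 4 ligands, Ccl24 among them, were higher and 1 was lower.

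**Figure D1:**
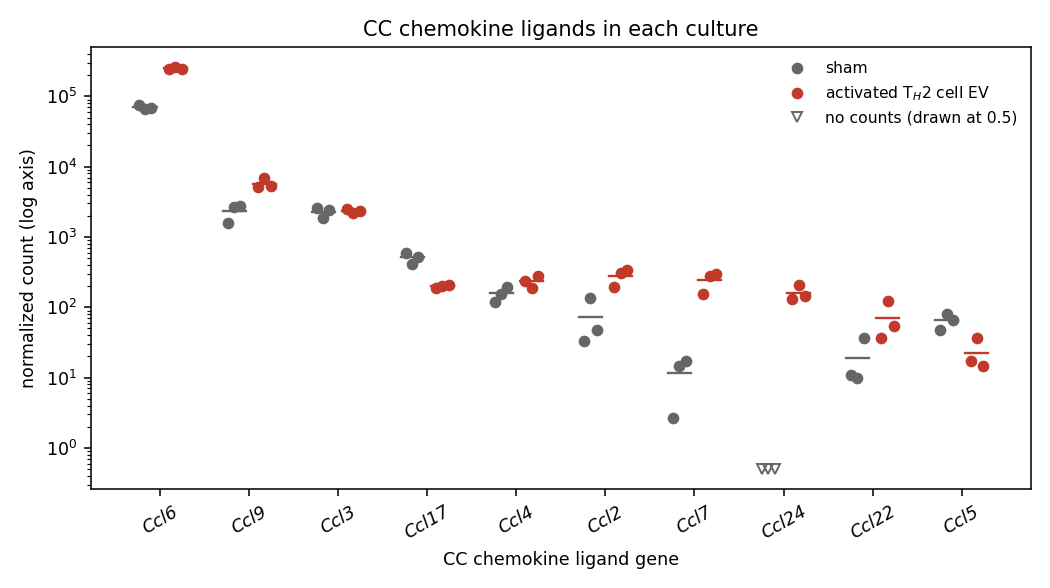
Normalized counts of the 10 CC chemokine ligand genes on a log axis, with 1 point per culture (3 sham-treated, 3 EV-treated) and a line at each group mean. Ccl6 lies far above the others, and Ccl24 has no count in the sham-treated cultures, which are drawn as open triangles at 0.5.

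Ccl2 and Ccl7, the neighbouring genes on chromosome 11, encode ligands of CCR2 that draw monocytes out of the bone marrow and into tissue. Ccl7 had 2.70, 14.7 and 17.01 normalized counts in sham replicates 1 to 3 and 154, 275 and 298 in EV replicates 1 to 3. The groups were far apart, although the sham values rest on 3, 12 and 14 counts. The log2 fold change was 4.45 (standard error 0.509, 95% interval 3.32 to 5.59, edgeR adjusted p = 8.63e-05). With any 1 culture left out it ranged from 3.93 to 4.90, and Ccl7 passed the threshold each time.

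Ccl2 had 33.3, 136 and 47.4 normalized counts in sham replicates 1 to 3 and 197, 306 and 337 in EV replicates 1 to 3. The groups did not overlap, but the sham-treated cultures differed widely, sham replicate 2 being the highest of them. The log2 fold change was 1.97 (standard error 0.457, 95% interval 0.95 to 2.99, edgeR adjusted p = 0.00726). This call was the least stable of the 6. It was lost in 4 of the 6 fits that left out a culture. Its edgeR adjusted p was 0.0138 without sham replicate 1, 0.0343 without sham replicate 3, 0.0289 without EV replicate 2 and 0.0365 without EV replicate 3. The log2 fold change in those 4 fits was between 1.62 and 1.90, and it was 2.81 without sham replicate 2, where the call held. Scaling by library totals alone gave an adjusted p of 0.0112 by edgeR, while DESeq2 gave 4.54e-05. Both Ccl2 and Ccl7 were lowest in sham replicate 1, the sham-treated library with the lowest summed macrophage markers. Among sham-treated libraries, Ccl4, Ccl5 and Ccl9 were also lowest there, while Ccl3, Ccl6 and Ccl17 were highest there. A link to the macrophage markers was not tested.

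Ccl6 and Ccl9 are ligands of CCR1 found in rodents and are made by myeloid cells. Ccl6 had 75473, 65833 and 67362 normalized counts in sham replicates 1 to 3 and 248136, 257635 and 247371 in EV replicates 1 to 3. It ranked 7th of the 16254 genes by mean normalized count, a value not divided by transcript length. Its spread was small in both groups, 7.45% of the mean in sham-treated and 2.28% in EV-treated cultures. Ccl6 rose by 1.85 on the log2 scale (standard error 0.0591, 95% interval 1.72 to 1.98, edgeR adjusted p = 2.87e-08), a 3.61-fold difference. Ccl9 had 1579, 2673 and 2775 normalized counts in sham replicates 1 to 3 and 5160.05, 6797 and 5228 in EV replicates 1 to 3. Sham replicate 1 was the lowest, and every EV-treated culture lay above every sham-treated one. The log2 fold change of Ccl9 was 1.29 (standard error 0.192, 95% interval 0.86 to 1.72, edgeR adjusted p = 0.000509). With each culture left out in turn it stayed between 1.08 and 1.45, and that of Ccl6 between 1.81 and 1.92, and both kept their calls. Of 15 macrophage markers, 12 fell while Ccl6 and Ccl9 rose, and 1, Adgre1, rose as they did. The part of macrophages in the Ccl6 and Ccl9 values was not tested.

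Ccl3, Ccl4 and Ccl5 are inflammatory ligands of monocytes and T cells, and Ccl3 and Ccl5 bind CCR1. Ccl3 had 2564, 1882 and 2391 normalized counts in sham replicates 1 to 3 and 2491, 2170.2 and 2340 in EV replicates 1 to 3. The EV-treated values lay within the sham-treated range. Its log2 fold change was 0.03 (95% interval -0.21 to 0.28, edgeR adjusted p = 0.848). Ccl4, its neighbour, had 121, 157 and 197 normalized counts in sham replicates 1 to 3 and 235, 185 and 281 in EV replicates 1 to 3. The groups overlapped, with EV replicate 2 under sham replicate 3. For Ccl4 the log2 fold change was 0.57 (95% interval 0.04 to 1.10, edgeR adjusted p = 0.0921). Ccl5 had 47.8, 80.9 and 66.8 normalized counts in sham replicates 1 to 3 and 16.98, 36.0 and 14.8 in EV replicates 1 to 3. Every EV-treated culture lay under the sham-treated ones, but with few counts the log2 fold change of -1.52 had a 95% interval from -2.65 to -0.38 (edgeR adjusted p = 0.0406), over the threshold.

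Ccl17 and Ccl22 encode the ligands of CCR4, a receptor of TH2 cells and regulatory T cells, and Ccl17 was the one of the pair that passed the test. Ccl17 had 601, 413 and 522 normalized counts in sham replicates 1 to 3 and 187, 199 and 209 in EV replicates 1 to 3. The EV-treated cultures were close together and lay well under the sham-treated ones. Ccl17 fell by 1.37 on the log2 scale (standard error 0.167, 95% interval -1.74 to -0.997, edgeR adjusted p = 0.000132), and kept its call with any culture left out. Ccl22 had 10.8, 9.80 and 36.5 normalized counts in sham replicates 1 to 3 and 37.0, 122 and 54.0 in EV replicates 1 to 3. Sham replicate 3 and EV replicate 1 almost touched. Its log2 fold change was 1.91 (95% interval 0.43 to 3.38, edgeR adjusted p = 0.0469), which did not pass, and the spread was 79.4% of the mean in sham-treated and 63.3% in EV-treated cultures. The receptor gene Ccr4 itself had no count in 5 of the 6 libraries.

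Ccl24 encodes an eotaxin that attracts eosinophils through CCR3. It had no count in any of the 3 sham-treated libraries and 131, 206 and 144 normalized counts in EV replicates 1 to 3. With 3 counts per sham-treated library allowed for a count of 0, the EV-treated mean of 160 was at least 47.9-fold higher. The limit uses the mean of the EV-treated cultures and leaves out their spread. No test is given, since Ccl24 entered the table of tested genes only through the EV-treated group. This limit covers counting error only.

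**Figure D2:**
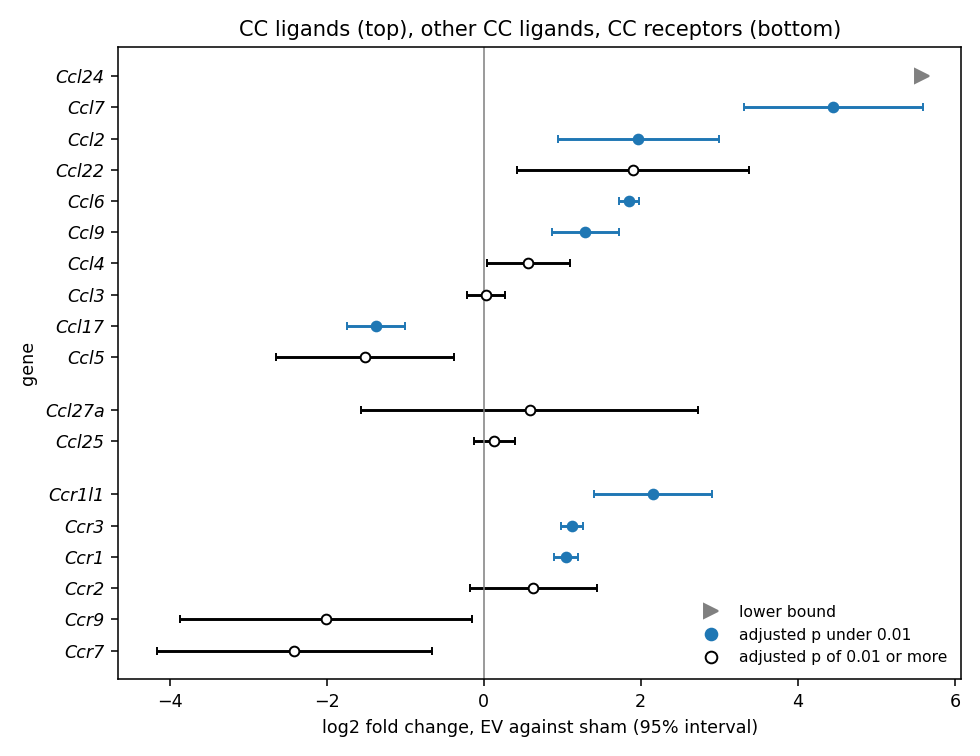
Log2 fold changes in EV- against sham-treated cultures with 95% intervals from edgeR's quasi-likelihood fit. Shown are the 10 CC ligands, 2 other CC ligands and 6 of the CC receptors tested. Filled points have an adjusted p under 0.01, and the triangle for Ccl24 is a lower bound based on the EV-treated mean, log2 of 47.9. Ccl17 is the only filled point left of 0.

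The 10 ligands together took 0.272%, 0.245% and 0.2501% of all counts in sham replicates 1 to 3 and 0.797%, 0.830% and 0.777% in EV replicates 1 to 3. The mean share was 3.13 times as large with EVs (exact two-sided permutation test, p = 0.1, the smallest that 3 against 3 samples can give). Most of this sum was Ccl6, which made up a mean of 92.7% of ligand counts in sham-treated and 96.4% in EV-treated cultures. Without Ccl6 the share was 0.0186% ± 0.00193 (SD, n = 3) with sham medium and 0.0285% ± 0.00291 (SD, n = 3) with EVs (exact two-sided permutation test, p = 0.1). As a mean percent of ligand counts, Ccl3 went from 3.03% to 0.898% and Ccl17 from 0.680% to 0.0762%. The level of Ccl3 itself was 2279 ± 354 normalized counts with sham medium and 2333 ± 160.3 with EVs (SD, n = 3 each), so its share moved while the ligand total grew. Ccl17 itself was at 0.387 of its sham level with EVs, so its share fell by more than its level. The share of Ccl9 went from 3.165% to 2.196%, although Ccl9 itself was 2.45-fold higher with EVs.

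**Figure D3:**
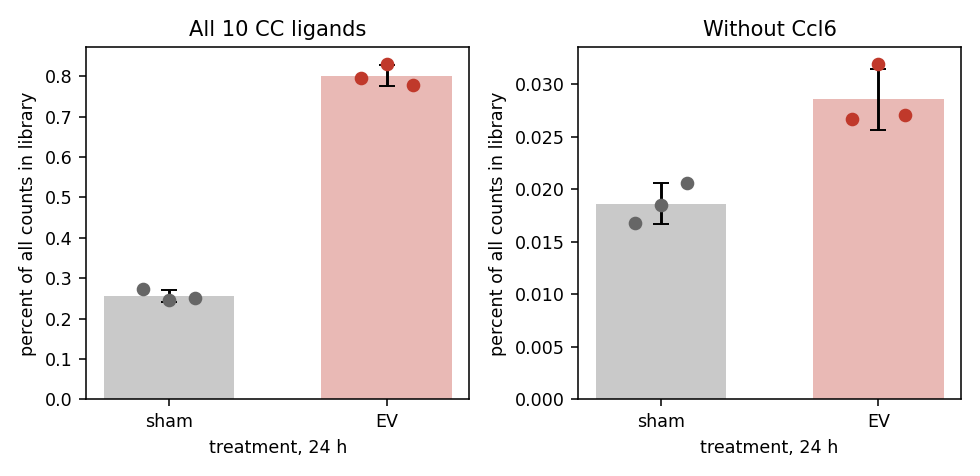
Percent of all counts in each library taken by the 10 CC ligands (left) and by the 9 without Ccl6 (right). Points are cultures, bars are means of 3 cultures and error bars are SD. In both panels every EV-treated culture lies above every sham-treated culture.

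Levels of different genes can be compared only per length, and normalized counts were therefore divided by the length in kilobases of the longest GENCODE transcript. Per kilobase, Ccl6 had a mean of 48300 ± 3600 (SD, n = 3) with sham medium and 174300 ± 3970 (SD, n = 3) with EVs. In sham-treated cultures Ccl3 came next at 2976 ± 463 (SD, n = 3), followed by Ccl17 at 996 ± 184 (SD, n = 3) and Ccl9 at 779 ± 221 (SD, n = 3), and Ccl17 and Ccl9 did not differ beyond their spread. In EV-treated cultures Ccl3 at 3046 ± 209 (SD, n = 3) was followed by Ccl9 at 1906 ± 308 (SD, n = 3). Next were Ccl17 at 386 ± 21.5 (SD, n = 3), Ccl4 at 354 ± 72.7 (SD, n = 3), Ccl7 at 302 ± 96.6 (SD, n = 3) and Ccl2 at 255 ± 67.1 (SD, n = 3), neighbours that did not differ beyond their spread. Ccl24, Ccl5 and Ccl22 were lowest with EVs, at 124 ± 30.9, 33.8 ± 17.5 and 32.0 ± 20.2 (SD, n = 3 each). The order of Ccl9 and of some low members depends on which transcript is used. With the median transcript length the mean per-kilobase level of Ccl9 was 1376 in sham-treated and 3366 in EV-treated cultures. These lay above Ccl17 in the first and above Ccl3 in the second, but not beyond the spread. Ccl22 then lay above Ccl5 with EVs (54.0 and 37.7) and above Ccl7 with sham medium (14.49 and 14.32). Little of the ligands' sequence is shared with other genes, at most 3.98% of the 31-base words of any of the 10 (Ccl9).

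Of the 11 other CC ligands listed, 3 were in the table and 2 could be tested. The log2 fold change was 0.14 for Ccl25 (edgeR adjusted p = 0.408) and 0.59 for Ccl27a (edgeR adjusted p = 0.68). Neither passed, 0 of the 2 had an unadjusted p under 0.05, and 0 were called by DESeq2 or limma. For Ccl27a, 57.0% of the 31-base words occur in other genes, so its counts are uncertain. Ccl12, a CCR2 ligand, had no count in the sham-treated libraries and 1, 12 and 5 counts in EV replicates 1 to 3, too few to test.

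The receptors for these ligands also differed between treatments. Of 7 CC receptors tested, 4 were higher and 0 were lower in edgeR's quasi-likelihood test, beside 12.1% and 11.6% of all genes tested. Of the receptors not called, Ccr7 and Ccr9 had lower values at an unadjusted p under 0.05. DESeq2 and limma also called 0 receptors lower. Ccr1, which binds Ccl3, Ccl5, Ccl6, Ccl7 and Ccl9, had 7132, 6745 and 7922 normalized counts in sham replicates 1 to 3 and 15128, 14694 and 15229 in EV replicates 1 to 3, a log2 difference of 1.05 (edgeR adjusted p = 1.87e-06). Ccr3, the receptor of Ccl24, was higher by 1.13 on the log2 scale (edgeR adjusted p = 7.64e-07). Ccr1l1, a Ccr1 paralog, rose by 2.15 on the log2 scale (edgeR adjusted p = 0.000688). Ccr2, the receptor of Ccl2 and Ccl7, differed by 0.63 on the log2 scale (edgeR adjusted p = 0.211), Ccr7 by -2.41 (edgeR adjusted p = 0.0366) and Ccr9 by -2.01 (edgeR adjusted p = 0.0895), and none of these passed. Ccr4 and Ccr6 had too few counts to test.

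**Figure D4:**
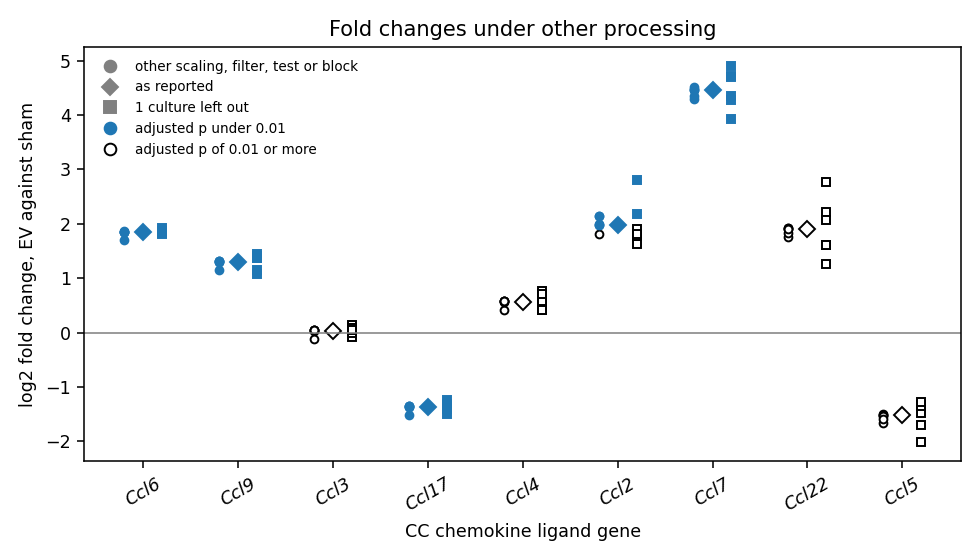
Log2 fold changes of 9 CC ligands (Ccl24 is left out because its fitted value is no bound) as reported, under other processing and with 1 culture left out. Diamonds are the reported values, circles other scaling, filter, test or block, and squares fits without 1 culture. Filled points have an adjusted p under 0.01. Ccl2 has both filled and open points, and Ccl3 lies on both sides of 0.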

How the data were processed

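RNA from 3 sham-treated and 3 EV-treated cultures was sequenced after poly(A) selection, and treatment and replicate number were read from the sample labels. The authors checked reads with FastQC, trimmed them with Cutadapt and quantified them with Salmon. Their notes name the build mm10, and versions, annotation and strandedness are not given in the sources used here. The authors deposited estimated counts for 16254 genes. They also deposited normalized counts, a signal equal to the rounded count plus 1 divided by a size factor, and these were used only in an alternative. The authors' table of fold changes and p-values was not used.

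Estimated counts were rounded and tested with edgeR 4.0.16 in R 4.3.3 (TMM, filterByExpr with a minimum count of 10, quasi-likelihood test, Benjamini-Hochberg adjustment over 13498 genes). A gene was called at an adjusted p under 0.01. Each standard error was derived from the fold change and its F statistic. The test was checked on simulated data. DESeq2 1.42.0, limma 3.58.1 (log2 of the normalized count plus 1), DESeq2 size factors or library totals as the scaling, leaving genes unfiltered, a block on replicate number, other thresholds and leaving out each culture were alternatives. Library totals of 23697620 to 37874426 make counting error small except for low counts.

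Gene lists came from general knowledge. All 10 members are named, and from other lists the 3 called genes with the smallest adjusted p and the receptors tested, and 2 genes that this rule would name are not reported here. Other genes named for a small count were chosen after their values were seen. Members and lists were chosen with earlier results of these data known. Shared sequence is the percent of a gene's 31-base words found in other GENCODE vM21 genes. Protein sequences were not used here.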

Additional observations from a re-analysis of the deposited data

How the results depend on the processing

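Of 120 refits of the 10 ligands under 12 alternatives, 112 kept both direction and call, 5 lost the call of Ccl2 and 3 turned the sign of Ccl3, which passed in none. The 112 include all 12 refits of Ccl24, which entered the test only through the EV-treated group, so those 12 do not show stability. The Ccl2 log2 fold change was 1.82 by library totals alone and 1.62 to 2.81 with a culture left out. That of Ccl3 was -0.11 by library totals and -0.0871 to 0.13 with a culture left out. The cause was not tested. Counting Ccl24, 4 to 5 ligands were higher and 1 was lower with a culture left out, and at an adjusted p under 0.05 the counts were 6 and 2.

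Scaling by library totals alone moved the median log2 fold change of all genes to -0.16, so that 7.68% of genes were higher and 17.4% lower. It called 4 signaling genes, 2 transcription factors and 1 eosinophil marker lower, and 0 dendritic cell markers higher. At an adjusted p under 0.05, 18.4% of genes, 1 CC receptor, 2 signaling genes and 3 dendritic cell markers were lower. Requiring a log2 fold change of at least 1 left 3.1% of genes higher and 6.35% lower, with 2 signaling genes, 3 transcription factors, 1 eosinophil marker and 0 macrophage markers higher, and 0 transcription factors lower. DESeq2 called 2 signaling genes and 2 dendritic cell markers lower, and limma called 2 signaling genes lower. With a culture left out, 7.67% to 13.3% of genes were higher and 7.29% to 12.3% lower, lowest for both without EV replicate 3. Over those fits 7 to 10 signaling genes were higher and 1 to 2 lower, 2 to 5 proteases were lower, 0 to 1 dendritic cell markers were higher and 1 to 2 lower, and 1 to 2 T cell markers were lower.

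Deviations of same-numbered sham- and EV-treated cultures had small correlations of 0.117, 0.0846 and 0.0371. Of the 6 samples, 5 correlated best with their own number, but the 6 share the same correlations and are not separate observations. No chance level was computed, so these values do not establish a pairing, and the design names none. With the replicate number as a block, 5 ligands, Ccl24 among them, were higher and 1 lower, and no ligand's call changed. In that fit 13.3% of genes were higher and 13.2% lower. The block called 2 signaling genes and 3 dendritic cell markers lower and 2 macrophage markers higher.

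Leaving out Ccl6 reduced the difference in library share from 0.5455 to 0.009911 percentage points. The median transcript length gave per-kilobase means of 89630 and 323500 for Ccl6, and 1376 and 3366 for Ccl9, in sham- and EV-treated cultures, and 54.0 for Ccl22 and 172.5 for Ccl24 in EV-treated cultures. Low counts limit Ccl2, Ccl5, Ccl7 and Ccl22, and Ccl24, with 0 counts in all sham-treated libraries, allows only a bound.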

Other observations

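Genes that act on, or downstream of, CC chemokines also differed between EV- and sham-treated eosinophil cultures. Of 6 tested proteases that can cleave chemokines, 5 fell (edgeR adjusted p under 0.01), where 11.6% of all genes tested did so. Mmp14, a membrane-bound matrix metalloproteinase, had a log2 fold change of -2.52, Mmp8 of -1.68 and Mmp9 of -1.08, and their EV-treated cultures all lay under the sham-treated ones. Mmp2 and Mmp12 were the others that fell. Without EV replicate 3, only 2 of the 6 proteases were called lower. In the same comparison 12 of 15 macrophage markers fell. The sums of all 15 were 99539 to 159965 normalized counts in sham-treated and 46612 to 54686 in EV-treated libraries. Most of each EV-treated sum was Adgre1, which rose. The part of macrophages in the protease values was not tested.

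Among 18 genes of chemokine receptor signaling, 7 rose and 1 fell, beside 12.1% and 11.6% of all genes tested, so that the share that fell was under the background. Grk5, a kinase that desensitizes G protein-coupled receptors, had a log2 fold change of 1.21. Rgs18 and Rgs14, which limit G protein signaling, had log2 fold changes of 1.13 and 0.95, while Rgs1, another regulator of that family, fell by 1.11 on the log2 scale. Of 12 transcription factors known to act on CC chemokine genes, 6 rose and 1, Rel, fell by 0.49 on the log2 scale, beside the same 12.1% and 11.6%, and the share that fell was again no higher than the background. Irf1 and Cebpb had log2 fold changes of 1.08 and 0.80.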
